A study of Mus musculus with 20 samples.

Results

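Control kidney cells kept in culture for 21 days (4 libraries) were compared with freshly isolated control cells (day 0, 2 libraries). These are 6 of the 20 RNA sequencing libraries of the series, chosen by their labels of treatment and time. All cells came from digested mouse kidney and were taken with magnetic beads against Sca-1, the cell surface product of the gene Ly6a. The series' design calls the control mice untreated, while the treatment protocol on every sample, controls included, names the roxadustat injection. Cultured cells grew in a mesenchymal stem cell medium with fetal calf serum and antibiotics at 20% oxygen and 5% carbon dioxide, and control cultures are labelled control, with no drug named in the design. For context, control cells at day 7 (4 libraries) show the path between the 2 times. Cells with roxadustat, a drug that stabilises hypoxia-inducible factor (HIF) by blocking its hydroxylases, give a second course from day 0 (2 libraries, mice injected for 7 days at 33 mg/kg) to day 21 (4 libraries, roxadustat in the culture medium); the labels do not say whether those cultures came from injected mice. The strain, age and sex of the mice and the number of passages are not given in the sources used here. Nothing says whether libraries of a group are separate mice, pools or dishes. The p-values therefore reflect the spread among libraries alone, estimated jointly over all 20, and that spread may be technical.

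Fresh kidney tissue is mostly tubule, a tube of epithelial cells that take back salt, sugar and protein from the filtrate and burn fat to pay for it. Around the tubules lies the interstitium with fibroblasts, pericytes, capillaries and immune cells. Stromal cells that attach to plastic in serum are known to divide, to build stress fibres and to secrete collagen, as myofibroblasts do in a scarring kidney, while tubule cells are known to lose their transport genes in culture.

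A total of 18731 genes passed the filter on low counts, and 14754 of them (78.8%) were called between day 21 and day 0, that is, had an adjusted p under 0.05 in edgeR's quasi-likelihood test with Benjamini-Hochberg adjustment. Of all genes tested, 7437 (39.7%) rose and 7317 (39.1%) fell. At least a 16-fold rise was called for 1144 genes (6.11%) and at least a 16-fold fall for 1741 genes (9.29%). The day 21 and day 0 libraries did not overlap in 14983 genes (80%), so a lack of overlap is common here. Since 78.8% of genes were called, a list of genes is read below by how far its share in 1 direction lies from 39.7% or 39.1% and by its median log2 change, which was 0.04 over all genes. Log2 changes are day 21 minus day 0, given with the standard error (SE) of the fit. Levels are CPM, read counts scaled to a common library total after TMM normalisation, and levels given as mean ± SD are over the 2 libraries of day 0 or the 4 libraries of day 21. In RNA from whole samples, fewer cells of a type and less RNA per cell cannot be told apart, and this holds for every change below.

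**Figure D1:**
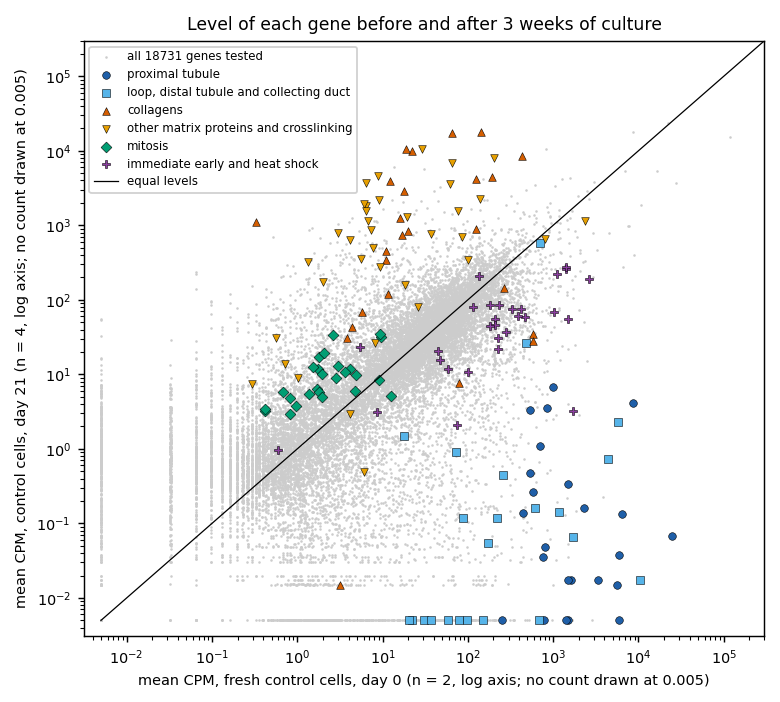
Mean CPM of each of the 18731 genes tested in fresh control cells (horizontal, n = 2) and after 21 days of culture (vertical, n = 4), on log axes, with genes without a count drawn at 0.005. Most tubule markers lie far below the line of equal levels, most collagens and other matrix genes lie far above it, most mitosis genes lie above it at low levels, and most immediate early genes lie below it.

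Total counts were 19562899 and 19451094 at day 0 and 13681573 to 17909440 at day 21. The 4 day 21 libraries formed close pairs: the chi-square per degree of freedom over genes was 2.323 between libraries 1 and 2 and 1.94 between 3 and 4, against 16.11 to 22 across the pairs. Even the close pairs differed by more than sampling noise (a value of 1), but that does not show 4 independent cultures. All 4 were counted, and with each close pair summed 7324 genes were higher and 7103 lower at day 21 than at day 0. The 2 day 0 libraries differed more, with 35.22, and genes that differ between them are named where they occur. Estimated by edgeR within 1 group, the coefficient of variation was 16.6% at control day 0, 9.07% at control day 21 and 4.07% at control day 7. The p-values use a spread estimated from all groups, so they can understate that of day 0.

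The transcript behind the sort was present in every library. Ly6a stood at 549.8 and 495 CPM at day 0 and at 199, 189, 163 and 161 CPM in the 4 libraries of day 21. The ranges do not overlap, and Ly6a fell 2.93-fold (log2 change -1.55 ± 0.07, adjusted p = 4.65e-17). Related Ly6 genes have similar sequences, and how reads that fit several genes were counted is not given in the sources used here. Erythropoietin (Epo), the hormone of interstitial fibroblasts, had 0 counts in all 6 libraries, so its level was not measurable at this depth.

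The label calls the cells mesenchymal stem cell-like, but in the fresh libraries tubule markers far outweighed stromal ones. Summed per kilobase of exon, 24 proximal tubule markers reached 42457 to 55315 CPM per kb at day 0, while 24 interstitial fibroblast markers reached 212 to 269.9 CPM per kb. At day 21 the order was turned: the proximal tubule list summed to 4.16 to 5.57 and the fibroblast list to 5979 to 6602 CPM per kb. Single genes weigh heavily on these sums, among them Kap at day 0 and Col1a1 and Col1a2 at day 21. Not divided by exon length, the tubule and fibroblast lists summed to 68956 to 86590 and 836 to 1131 CPM at day 0. At day 21 these sums were 17.9 to 23.8 and 40136 to 45581 CPM. The 16 markers used for mesenchymal stromal cells split, with 8 higher and 7 lower at day 21 (median log2 change 0.90, or 1.71 over members with a mean of at least 1 CPM). Thy1, an adhesion protein known as CD90, rose from 2.51 ± 1.41 to 250.1 ± 9.83 CPM (log2 change 6.63 ± 0.16, adjusted p = 3.09e-23). Vcam1, which binds white blood cells, rose from 17.1 ± 0.111 to 543 ± 26.1 CPM, and the integrin subunit Itgb1 from 324 ± 2.99 to 2475 ± 123 CPM. Nt5e, the CD73 enzyme that makes adenosine and a mark of cortical kidney fibroblasts, instead fell from 198 ± 19.3 to 13.8 ± 0.835 CPM (log2 change -3.83 ± 0.08), as did Ly6a. Which cells of the fresh samples made the Nt5e transcript was not tested.

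**Figure D2:**
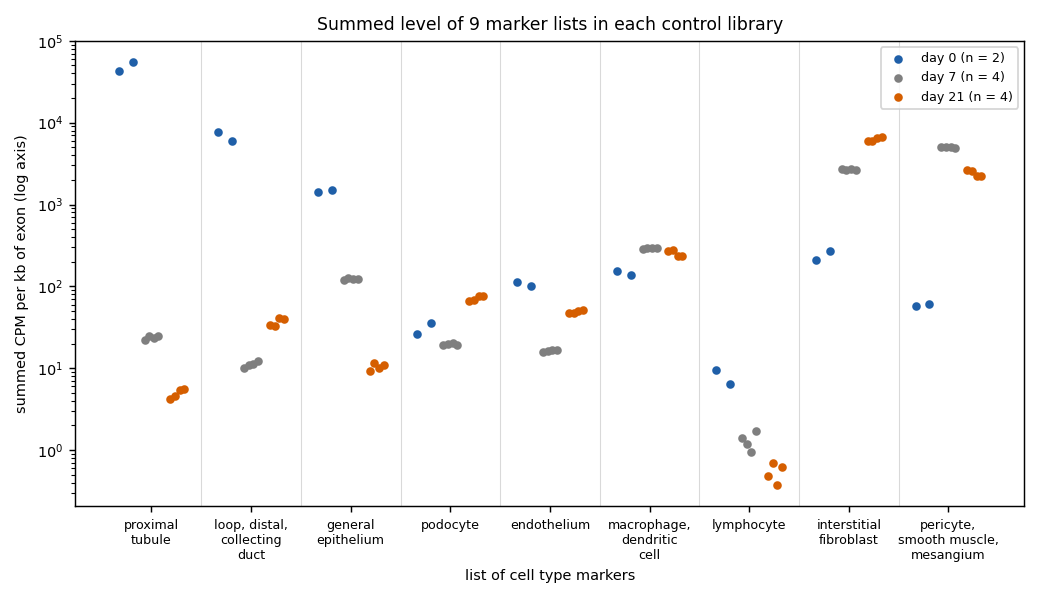
Summed CPM per kilobase of exon of 9 lists of cell type markers (horizontal) in each control library at day 0, day 7 and day 21, on a log axis, 1 point for each library. Proximal tubule markers summed to 42457 to 55315 at day 0 and 4.16 to 5.57 at day 21, and interstitial fibroblast markers to 212 to 269.9 and 5979 to 6602.

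Tubule transcripts were almost gone after 3 weeks. All 24 proximal tubule markers fell, with a median log2 change of -14.62 (-13.91 with genes of 3 counts or fewer set at that floor), and 5 of them had no count in any day 21 library. Lrp2 encodes megalin, the receptor by which the proximal tubule takes up filtered protein, and lies at chr2:69424340-69586065 (GRCm38). It stood at 8342 and 9141 CPM at day 0 and at 3.75, 3.30, 5.91 and 3.79 CPM at day 21. The day 21 libraries were all far below both fresh ones, a 2121-fold fall (log2 change -11.05 ± 0.11, adjusted p = 2.1e-31). The phosphate carrier Slc34a1 went from 182632 counts over both day 0 libraries to 2 counts over the 4 of day 21, a ratio of 178164 (95% counting interval 49320.3 to 1471170.0). Acsm2, a mitochondrial enzyme that activates medium-chain acids, had the highest fresh level of the genes without a single count at day 21, with 5789 and 6151 CPM in the fresh libraries, so it was at least 118811-fold lower. Among the genes that kept 10 counts or more, the largest falls included Keg1 (an acyltransferase of the proximal tubule, log2 change -13.69 ± 0.15), Ggt1 (the brush border enzyme that splits glutathione, -12.04 ± 0.14) and the tubule gene Ttc36 (-11.13 ± 0.15). The water channel Aqp1 fell from 709.8 ± 79.8 to 1.10 ± 0.196 CPM. Kap, the androgen-regulated protein of the proximal tubule, was among the 5 genes with the most counts in fresh cells at 21219.8 and 27979.7 CPM and had 4 counts in all at day 21.

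The rest of the nephron followed. Of 23 tested markers of the loop, distal tubule and collecting duct (of 24 listed), 22 fell, with a median log2 change of -11.79 (-10.63 with genes at the floor), and 9 had no count left. Slc12a1, the salt carrier of the thick ascending limb and target of loop diuretics, stood at 4873 and 3908 CPM at day 0 and at 0.676, 0.780, 0.799 and 0.632 CPM at day 21. All day 21 values were below 1 CPM, and the fall was 6033-fold (adjusted p = 2.31e-16). Egf, a growth factor of the distal tubule, fell from 5826 ± 463 to 2.26 ± 0.693 CPM, and the potassium channel Kcnj1 from 619 ± 84.3 to 0.163 ± 0.187 CPM. Umod, which encodes a urinary protein, had 1 count at day 21 against 318976 at day 0, a ratio of 622346 (95% counting interval 111698 to 24581400.0). Slc26a4, the chloride and bicarbonate exchanger of intercalated cells, had none and was at least 2975-fold lower. The single uncalled member was Wnk1, a kinase found in many cell types, at 710.5 ± 88.2 and 579 ± 110.0 CPM (adjusted p = 0.122). It was chosen for naming after its values were seen.

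General epithelial genes and the factors that switch them on fell as well. Of 25 general epithelial genes, 24 fell and none rose (median log2 change -7.59), and all 23 kidney epithelial transcription factors fell (median -5.65). Cdh16, the kidney-specific cadherin, stood at 2078 and 1986 CPM at day 0 and at 2.89, 3.30, 2.71 and 2.39 CPM at day 21. The groups do not overlap, and Cdh16 fell 713-fold (log2 change -9.48 ± 0.09, adjusted p = 2.16e-32). Cdh1, which encodes E-cadherin of the junctions between epithelial cells, kept 3 counts of 10102, a ratio of 6569.9 (95% counting interval 2247 to 31864). Epcam kept 1 count, while the tight junction gene Cldn4 fell from 309 ± 34.5 to 0.147 ± 0.0707 CPM and the keratin Krt7 from 195 ± 9.88 to 1.23 ± 0.151 CPM. Krt19, chosen after its values were seen as the 1 uncalled member, was at 2.02 ± 0.442 and 1.38 ± 0.512 CPM (adjusted p = 0.0641). Hnf4a, the nuclear receptor that directs proximal tubule identity, stood at 693 and 879.7 CPM in fresh cells and had no count in any of the 4 day 21 libraries, so it was at least 15652-fold lower. Tfcp2l1, a factor of the distal nephron, fell from 734 ± 148 to 5.45 ± 0.683 CPM.

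Genes of oxidative metabolism and glucose production fell too. All 22 genes of fatty acid oxidation (median log2 change -2.54), all 26 nuclear genes of the respiratory chain (median -2.34) and 11 of 12 genes of gluconeogenesis and fructose use (median -7.00) fell. Ehhadh, a peroxisomal enzyme of fat oxidation, fell from 838 ± 93.8 to 5.39 ± 0.432 CPM, and Cpt1a, which brings long-chain fat into mitochondria, from 732 ± 64.3 to 334 ± 4.69 CPM. Ppargc1a, the coactivator that drives mitochondrial growth, stood at 156 and 142 CPM at day 0 and at 0.430, 0.660, 0.878 and 1.12 CPM at day 21, a 195-fold fall (adjusted p = 1.07e-27). Ndufs1, of complex I, fell 5.50-fold and Sdhb, of complex II, 6.70-fold. Fbp1, a gluconeogenic enzyme, was at 1189 and 1668 CPM fresh and at 0 counts at day 21 (at least 28430.1-fold lower). Pck1, the rate-limiting enzyme of gluconeogenesis, differed between the fresh libraries (2324 and 9039 CPM) and had 1 count at day 21, a ratio of 337819 (95% counting interval 60631 to 13343200.0). Its mitochondrial sister Pck2 was the 1 member that rose, from 13.7 ± 0.976 to 135 ± 3.11 CPM (adjusted p = 7.29e-24).

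Transcripts of the mitochondrial genome took a smaller share of each library after culture. Their share was 15.7% and 11.8% of counts in the fresh libraries and 2.00% to 2.41% at day 21 (mean 13.7% ± 2.71 (SD, n = 2) against 2.22% ± 0.190 (SD, n = 4)). The groups do not overlap, with an exact two-sided permutation p of 0.0667, the smallest that 4 against 2 libraries can give, so 0.05 cannot be reached. Most of the share was mitochondrial ribosomal RNA, with means of 10.02% at day 0 and 1.58% at day 21. Mitochondrial messenger RNA made up 3.71% and 0.638%. All 7 tested of 13 listed mitochondrial messenger RNAs fell (median log2 change -2.23). The other listed ones did not pass the filter on low counts, and the reason was not tested. mt-Co1, a core subunit of complex IV, fell 7.44-fold from 31001 and 23701 CPM to 4179, 3835, 3301 and 3394 CPM. The ribosomal RNA mt-Rnr2, which took the most counts of any gene in fresh cells, fell 7.60-fold. The share of the 10 most abundant genes of a library was also smaller, going from 20.0% ± 2.16 (SD, n = 2) to 13.1% ± 1.05 (SD, n = 4), again with an exact two-sided permutation p of 0.0667.

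Most endothelial and lymphocyte markers fell. Of 24 endothelial genes 21 fell and 3 rose, with a median log2 change of -4.05. Pecam1, the endothelial adhesion protein CD31, stood at 44.7 and 35.9 CPM at day 0 and at 0.184, 0, 0 and 0.0703 CPM at day 21 (log2 change -9.08 ± 0.30, adjusted p = 6.14e-21). Cdh5, the cadherin of endothelial junctions, fell from 19.8 ± 2.90 to 0.0727 ± 0.0995 CPM. Against this direction went Flt1, a VEGF receptor, with 38.9 ± 2.90 and 257 ± 12.5 CPM (log2 change 2.72 ± 0.09, adjusted p = 9.95e-21), Eng, a TGF-beta coreceptor that stromal cells also make, with 14.6 ± 1.20 and 48.6 ± 10.3 CPM, and Ehd3, an endocytosis protein of glomerular vessels, with 13.9 ± 3.46 and 28.6 ± 1.98 CPM. Only 8 of 16 lymphocyte markers passed the filter, of which 6 fell. Ighm, the heavy chain of IgM, had 250 counts over the fresh and 2 over the day 21 libraries, a ratio of 244 (95% counting interval 66.8 to 2025).

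Macrophage genes moved both ways. Of 24 macrophage and dendritic cell genes, 13 rose and 7 fell (median log2 change 0.86). Lyz2, the lysozyme of macrophages and neutrophils, stood at 12.2 and 15.3 CPM at day 0 and at 225, 223, 187 and 192 CPM at day 21, a 15.03-fold rise (adjusted p = 6.41e-23), though its near copy Lyz1 can share reads. Adgre1, the F4/80 antigen, rose from 4.47 ± 0.927 to 11.5 ± 0.939 CPM. Trem2, a lipid receptor of macrophages, went from 2 counts to 6.87 ± 0.707 CPM, a ratio of 106 (95% counting interval 29.04 to 875). In contrast the growth factor receptor Csf1r fell from 39.2 ± 11.01 to 10.02 ± 0.460 CPM. The class II antigen genes fell to or near 0: H2-Aa stood at 59.4 and 48.3 CPM and H2-Ab1 at 63.8 and 38.96 CPM in fresh cells, and neither had a count at day 21 (at least 1072-fold and 1023-fold lower). Their chaperone Cd74 kept 3 counts of 2707, all in library 3, a ratio of 1761 (95% counting interval 602 to 8542).

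Podocyte genes also split, 6 higher and 6 lower of 12. The slit diaphragm gene Nphs1 (5.65 and 9.15 CPM fresh, no count at day 21, at least 147-fold lower) fell, as did the surface sialoprotein Podxl, from 55.5 ± 4.70 to 1.39 ± 0.404 CPM. The transcription factor Wt1 rose from 4.78 ± 2.45 to 37.5 ± 4.41 CPM, Cdkn1c from 3.66 ± 0.960 to 61.2 ± 3.56 CPM (with 30.7% of its exon bases shared with another gene) and Thsd7a, a podocyte membrane protein, from 12.99 ± 2.95 to 44.02 ± 5.36 CPM.

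Fibroblast and matrix genes rose most. Of 24 tested interstitial fibroblast genes (of 25 listed), 19 rose and 4 fell, with a median log2 change of 4.79. Pdgfrb, the PDGF receptor of perivascular stroma, stood at 6.30 and 6.06 CPM at day 0 and at 701, 705, 786 and 765 CPM at day 21. All 4 cultured libraries lay far above both fresh ones, a 119.5-fold rise (log2 change 6.90 ± 0.12, adjusted p = 4.53e-27). Pdgfra, its sister receptor, stood at 8.83 and 27.6 CPM in the fresh libraries, which differed from each other, and at 150.5, 152, 156 and 154 CPM at day 21 (log2 change 3.07 ± 0.26). Vim, the intermediate filament of mesenchymal cells, rose 68.7-fold to 3272 ± 149 CPM. Besides Nt5e, members that fell were Tcf21, a transcription factor of kidney stroma (0.974 and 1.12 CPM fresh, no count at day 21, at least 20.8-fold lower), Pi16, a mark of adventitial fibroblasts, from 26.5 ± 8.62 to 2.00 ± 0.306 CPM, and Dpep1, a dipeptidase that the proximal tubule also expresses, from 165 ± 52.5 to 54.2 ± 4.79 CPM.

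Most collagens rose. Of 25 collagen genes 20 rose (median log2 change 5.00) and 5 fell. Col1a1, a chain of type I collagen at chr11:94936224-94953042 (GRCm38), stood at 21.2 and 23.6 CPM at day 0 and at 7099, 7782, 12342 and 12482 CPM in day 21 libraries 1 to 4. The close pair of libraries 3 and 4 was higher than the pair of 1 and 2, and all were far above the fresh cells (log2 change 8.79 ± 0.54, adjusted p = 4.15e-10). Its partner chain Col1a2 rose from 64.7 ± 19.9 to 17261 ± 471 CPM and Col3a1, of type III collagen, from 143 ± 39.9 to 17854 ± 1738 CPM, and both were among the 5 genes with the most counts at day 21. Among genes with at least 10 counts at day 0 and 50 CPM at day 21, the largest fitted rise was that of Col11a1, a minor fibril chain, at 0.130 and 0.527 CPM fresh and 1170.3, 1120.0, 1034 and 1103 CPM cultured (log2 change 11.69 ± 0.17, adjusted p = 1.24e-28). Col12a1, which sits on the fibril surface, rose from 18.9 ± 2.68 to 10494 ± 778 CPM and Col8a1, a short-chain collagen, from 12.3 ± 2.93 to 3986 ± 164 CPM.

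Basement membrane collagens went different ways. Col4a1, of the network found under most tissues, rose from 436 ± 32.5 to 8489 ± 124 CPM. Col4a3 fell from 586 ± 88.7 to 35.1 ± 4.32 CPM and Col4a4 from 573 ± 4.58 to 28.1 ± 4.83 CPM (adjusted p = 4.1e-24 and 1.7e-24). These 2 encode chains of the network of glomerular and tubular basement membranes. The other members that fell were Col18a1 (log2 change -0.89 ± 0.08), Col27a1 (-3.37 ± 0.14) and Col26a1, with 98 counts fresh and 1 at day 21.

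Other matrix genes and crosslinking enzymes had the highest median of the 39 lists, with 32 of 36 higher, 2 lower and a median log2 change of 5.82. Postn, periostin of scar tissue, stood at 8.50 and 9.08 CPM fresh and at 4953, 4711, 4254 and 4439.7 CPM at day 21 (log2 change 9.03 ± 0.28, adjusted p = 2.84e-15). Fn1, the fibronectin that cells lay down before collagen, rose 363-fold to 10438 ± 2235 CPM, and Thbs1, which releases TGF-beta from its latent form, 39.7-fold to 8032 ± 220.0 CPM. Lox, which crosslinks collagen, stood at 3.44 and 9.41 CPM fresh and rose 567-fold to 3643 ± 148 CPM. Ltbp2 (a microfibril protein, 10.35), Ccn3 (9.23), Fbln2 (a basement membrane linker, 8.81) and the BMP-binding Bmper (8.53) were among the 12 largest log2 rises, as were Ahnak2 (9.31) and the neuropeptide receptor Adcyap1r1 (8.58), which are in no list. Mmp14, a membrane protease that cuts collagen, rose from 6.84 ± 1.22 to 1148 ± 13.9 CPM. Eln, elastin, fell from 6.05 ± 0.660 to 0.489 ± 0.198 CPM and the protease inhibitor Timp3 from 2389 ± 848 to 1155 ± 16.9 CPM, with 21.3% of its exon bases shared with another gene. Uncalled were Ccn1, at 811 ± 212 and 652 ± 40.8 CPM, and the collagenase Mmp13, at 4.15 ± 0.560 and 2.92 ± 0.569 CPM, named here after their values were seen.

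Contractile genes rose together. Of 21 genes of myofibroblast contraction 20 rose and 1 fell (median log2 change 3.52). Acta2, the smooth muscle actin that defines myofibroblasts, stood at 13.7 and 12.2 CPM at day 0 and at 2415, 2336, 2067 and 2033 CPM at day 21, a 170.5-fold rise (adjusted p = 6.23e-15). Tagln, an actin-binding protein of smooth muscle, rose 146-fold to 1159.9 ± 118 CPM. Actg2, an enteric smooth muscle actin, had 2 counts fresh and reached 223 ± 15.98 CPM, a ratio of 3442 (95% counting interval 953 to 28422). Actins are close in sequence, so reads may be shared between Acta2 and Actg2. Srf, the factor that binds the CArG box of such genes, was the 1 member that fell, from 109 ± 0.179 to 46.9 ± 2.10 CPM (adjusted p = 9.35e-15).

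The promoters of 3 contractile genes are shown because they hold the CArG box (CC, 6 bases of A or T, then GG), the known binding motif of SRF. The sequence is from the RefSeq promoter table (GRCm38.p6), given from 5′ to 3′ on the strand of the gene and trimmed to bases before both the RefSeq and the GENCODE start, with the box in capitals. Myl9, a myosin light chain, is read at chr2:156775214-156775419 on the plus strand, Vcl, vinculin of focal adhesions, at chr14:20929148-20929397 on the plus strand, and Cnn2, a calponin, at chr10:79988350-79988583 on the plus strand.
Myl9: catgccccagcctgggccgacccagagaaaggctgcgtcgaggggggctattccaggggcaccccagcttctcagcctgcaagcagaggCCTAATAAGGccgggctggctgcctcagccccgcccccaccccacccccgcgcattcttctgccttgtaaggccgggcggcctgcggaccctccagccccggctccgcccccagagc
Vcl: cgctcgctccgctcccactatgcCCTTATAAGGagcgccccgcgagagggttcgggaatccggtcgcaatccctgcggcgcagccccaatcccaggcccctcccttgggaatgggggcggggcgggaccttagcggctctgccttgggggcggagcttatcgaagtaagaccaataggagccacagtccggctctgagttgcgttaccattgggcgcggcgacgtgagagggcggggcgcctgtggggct
Cnn2: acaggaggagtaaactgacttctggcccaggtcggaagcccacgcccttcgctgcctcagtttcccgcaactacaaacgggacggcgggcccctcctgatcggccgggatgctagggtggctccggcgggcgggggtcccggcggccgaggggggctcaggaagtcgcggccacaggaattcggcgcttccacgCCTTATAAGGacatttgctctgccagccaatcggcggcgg
Of the 19 contraction genes that rose and have an entry in that table, 3 (15.8%) hold the box in the 250 bases before the start. The share was 1.14% of the 12402 tested genes with an entry and 1.41% of all 27025 genes of the table. Srf, the member that fell, holds 2 matches in these bases, and Acta2, which rose, holds none. Among genes called at least 16-fold higher the share was 2.43% (16 of 658), and among those at least 16-fold lower 0.812% (10 of 1231). A match is a description of letters and does not show a site in use. Myl9 rose from 7.61 ± 1.54 to 579.9 ± 53.1 CPM, Cnn2 from 9.78 ± 0.696 to 501 ± 28.7 CPM and Vcl from 137 ± 11.96 to 705 ± 48.1 CPM, the last with 25.5% of its exon bases shared with another gene.

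A joint list of pericyte, smooth muscle and mesangium markers rose for the most part. It shares Acta2, Tagln and Myl9 with the contraction list above, and the pericyte genes Rgs5, Kcnj8 and Abcc9 fell. Of 20 markers 15 rose (median log2 change 3.01), among them Des, the muscle filament desmin, from 1.73 ± 0.0293 to 269 ± 15.9 CPM (adjusted p = 2.87e-28). The 5 that fell were Rgs5, Kcnj8, Abcc9, Ren1 and Gata3. Rgs5, a G protein regulator of pericytes, went from 26.2 ± 1.13 to 1.47 ± 0.233 CPM. The subunits of the pericyte potassium channel were Kcnj8 (3.77 and 6.25 CPM fresh, no count at day 21, at least 99.7-fold lower) and Abcc9 (331 against 1 count). Renin (Ren1) had 502 against 2 counts. Gata3, listed here for the mesangium, went from 7.13 ± 0.994 to 1.30 ± 0.152 CPM, and which cells made it was not tested.

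Transcription factors of the stroma rose, while Hox genes, which mark position along the body, went both ways. Of 26 tested stromal factors 22 rose (median log2 change 3.85) and 3 fell. Prrx1, a factor of limb and scar fibroblasts, stood at 2.34 and 2.57 CPM fresh and at 532, 541, 625 and 634 CPM at day 21, a 237-fold rise (adjusted p = 1.83e-28). Zeb1, which represses epithelial genes, rose from 10.4 ± 0.286 to 146 ± 3.31 CPM, and Foxd1, the factor of the embryonic kidney stroma, from 0.361 ± 0.235 to 1.87 ± 0.261 CPM. Besides Tcf21, Osr2 fell from 4.83 ± 1.34 to 0.480 ± 0.243 CPM and Tbx2 from 53.96 ± 0.353 to 1.80 ± 0.298 CPM. Of 28 tested Hox genes (of 30) 14 rose and 12 fell. Hoxd8 fell from 220.3 ± 23.8 to 6.58 ± 0.795 CPM, Hoxd9 from 35.1 ± 1.40 to 2.37 ± 0.814 CPM and Hoxa9 from 54.9 ± 7.61 to 11.1 ± 0.885 CPM, while Hoxc8 rose from 2.06 ± 0.159 to 60.6 ± 3.99 CPM.

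Secreted signals changed too. Of 26 tested growth factors and their carriers 17 rose and 8 fell (median log2 change 2.36). Igfbp3, a carrier of insulin-like growth factors, stood at 36.8 and 52.3 CPM at day 0 and at 2205, 2176, 2062 and 2076 CPM at day 21 (log2 change 5.58 ± 0.12, adjusted p = 2.48e-25). Igf1 itself rose from 7.32 ± 0.391 to 47.8 ± 2.61 CPM and Fgf2 from 1.77 ± 0.202 to 304 ± 13.5 CPM. Hbegf, a ligand of the EGF receptor, fell from 448 ± 74.5 to 17.8 ± 0.794 CPM. In the TGF-beta and BMP list 19 of 27 rose and 7 fell (median 1.76). The ligand Tgfb3 rose 115-fold to 216 ± 11.2 CPM and Tgfb1 10.96-fold to 46.1 ± 9.18 CPM. Bmp7, the BMP of the tubule, fell from 54.8 ± 1.78 CPM to 0.0706 ± 0.0829 CPM, and Id2, a target that BMP signals switch on, from 343 ± 6.41 to 11.95 ± 1.31 CPM. Of 26 tested Wnt genes 14 rose and 7 fell. Dkk3 rose 92.9-fold to 292 ± 17.7 CPM and Wnt5a from 10.5 ± 2.49 to 21.1 ± 1.69 CPM.

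Cells cultured for 3 weeks still carried more cell division transcripts than fresh ones. Of 26 mitosis genes 23 rose and 1 fell, with a median log2 change of 1.93. Without day 0 library 1 that median was 3.00, and without library 2 it was 1.58. Mki67, the Ki-67 protein of cycling cells, stood at 15.2 and 3.88 CPM in the fresh libraries, which differed severalfold, and at 31.4, 28.1, 32.6 and 34.2 CPM at day 21. The day 21 values all exceeded both fresh ones (log2 change 1.72 ± 0.29, adjusted p = 4.71e-05). Anln, which acts at the cleavage furrow, rose from 2.64 ± 1.22 to 33.7 ± 0.523 CPM (adjusted p = 4.93e-20). Kif23, a motor of the same step, was the member that fell, from 12.6 ± 2.37 to 5.06 ± 0.879 CPM. The DNA replication list was divided, with 13 of 26 higher and 6 lower. Of the helicase subunits Mcm2 rose from 16.99 ± 0.482 to 21.4 ± 1.37 CPM and Mcm6 fell from 33.7 ± 2.86 to 25.8 ± 1.18 CPM. Rrm1, of ribonucleotide reductase, rose 17.7-fold and Ccne1, the cyclin E1 of S phase entry, from 0.882 ± 0.130 to 16.4 ± 0.811 CPM.

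The promoters of 3 cell division genes are shown because they hold CCAAT boxes, a motif common in genes of the G2 phase. CCAAT was searched on both strands (ATTGG on the other), and matches are in capitals, in the same RefSeq table and with the same trimming as above. Top2a, which untangles chromosomes, is read at chr11:99024190-99024439 on the minus strand, Ube2c, which marks cyclins for breakdown, at chr2:164769679-164769897 on the plus strand, and Cdk1, the kinase that starts mitosis, at chr10:69352939-69353162 on the minus strand.
Top2a: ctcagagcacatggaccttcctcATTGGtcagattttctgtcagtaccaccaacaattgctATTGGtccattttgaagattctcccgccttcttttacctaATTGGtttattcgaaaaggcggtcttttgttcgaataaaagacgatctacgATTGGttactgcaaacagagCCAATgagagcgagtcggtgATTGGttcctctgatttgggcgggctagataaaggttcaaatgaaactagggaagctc
Ube2c: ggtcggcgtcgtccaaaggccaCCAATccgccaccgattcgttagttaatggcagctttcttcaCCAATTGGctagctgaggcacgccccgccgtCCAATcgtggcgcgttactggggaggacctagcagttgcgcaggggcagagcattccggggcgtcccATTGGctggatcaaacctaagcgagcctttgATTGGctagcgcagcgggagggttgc
Cdk1: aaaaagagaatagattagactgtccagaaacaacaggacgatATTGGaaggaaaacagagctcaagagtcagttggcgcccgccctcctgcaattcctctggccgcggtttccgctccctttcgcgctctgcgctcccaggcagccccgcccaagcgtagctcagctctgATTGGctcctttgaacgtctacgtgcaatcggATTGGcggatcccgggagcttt
These windows hold 6, 6 and 3 matches, and in Ube2c a match on each strand overlaps in the letters CCAATTGG. Of the 18 mitosis genes that rose and have an entry, 16 (88.9%) hold a CCAAT match within 250 bases before the start, against 35.4% of tested genes and 34.5% of all genes of the table. The motif TTTGAA, the cell cycle homology region searched on both strands, was found in 7 of the 18 (38.9%), against 11.2% of tested genes. The CCAAT share was also 7 of 8 (87.5%) in cholesterol synthesis genes that rose and 7 of 8 in those that fell. Top2a rose from 9.25 ± 6.75 to 35.1 ± 1.71 CPM, Cdk1 from 1.82 ± 1.37 to 16.9 ± 1.80 CPM and Ube2c from 0.684 ± 0.409 to 5.85 ± 0.950 CPM, with 22.8% of the exon bases of Ube2c shared with another gene.

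A joint list of cell cycle inhibitors and senescence genes also went both ways. Of 22 cell cycle inhibitor and senescence genes 9 rose and 7 fell, a share of rises close to that over all genes (39.7%), and 12 rose when scaled by library size alone. Cdkn2a, whose transcripts encode p16 and p19 and were counted together, had 1 count in each fresh library and stood at 255, 248, 219 and 221 CPM at day 21, a ratio of 3633 (95% counting interval 1006 to 30001). Its neighbour Cdkn2b rose from 5.20 ± 0.651 to 135 ± 12.6 CPM (adjusted p = 1.18e-23). The p53 targets Cdkn1a, which encodes p21, and Mdm2 rose 15.8-fold to 322 ± 33.7 CPM and 4.54-fold to 432 ± 6.72 CPM. The largest falls, named here after their values were seen, were those of the chemokine Cxcl1, from 228 ± 174 to 7.25 ± 0.755 CPM, and of Igfbp5, a carrier of insulin-like growth factors, from 126 ± 33.7 to 9.07 ± 1.65 CPM.

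Immediate early genes, which cells switch on within minutes of a stimulus, were high in the fresh libraries. Of 29 immediate early and heat shock genes 26 were lower at day 21 (median log2 change -2.30). Fos stood at 2500.0 and 2723 CPM at day 0 and at 189, 202, 179 and 183 CPM at day 21, a 13.9-fold fall (adjusted p = 1.74e-27). Atf3, a stress factor of the same wave, fell 528-fold from 1691 and 1724 CPM to 3.27 ± 0.711 CPM, and Jun from 1488 ± 78.0 to 56.2 ± 1.57 CPM. The 2 members that rose were Fosl2, from 136 ± 23.4 to 209.7 ± 33.1 CPM, and the small heat shock protein Hspb1, from 5.399 ± 1.30 to 23.2 ± 2.25 CPM.

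Most ribosomal protein genes and some genes for folding and exporting collagen rose. Of 25 genes of ER folding and collagen secretion 14 rose and 6 fell (median log2 change 0.48, or 0.23 without day 0 library 2). The number that fell was 3 without day 0 library 1 and 2 when scaled by library size alone. The largest rises of that list were in Fkbp10, a collagen prolyl isomerase (1.44 ± 0.0784 to 340.3 ± 6.72 CPM), Kdelr3, which returns escaped ER proteins (0.980 ± 0.00955 to 132 ± 7.82 CPM), and Serpinh1, the collagen chaperone HSP47 (139.9 ± 23.8 to 2236 ± 198 CPM). Of 20 ATF4 and amino acid stress genes 13 rose and 5 fell, with Asns, which makes asparagine, up 11.6-fold and Aldh18a1, of proline synthesis, up 18.6-fold to 120.5 ± 1.98 CPM. Atf4 itself, the transcription factor of that response, fell from 296 ± 3.07 to 233 ± 20.1 CPM (uncalled when scaled by library size alone, adjusted p = 0.138 in edgeR) and Shmt2, of mitochondrial serine use, from 181 ± 47.9 to 45.9 ± 2.38 CPM. The summed level of the list was 1256 ± 72.5 CPM at day 0 and 1227 ± 27.03 CPM at day 21. Of 30 cytosolic ribosomal protein genes 25 rose (median 0.66), such as Rps19 from 60.5 ± 8.56 to 137 ± 5.25 CPM. Rpl24 was the 1 that was lower (adjusted p = 0.0434), with 47.0% of its exon bases shared with another gene, and most other settings did not keep the call. Ribosomal protein genes have many near-identical pseudogenes, so their counts are uncertain. Of 22 lysosome genes 15 rose and 6 fell. Ctsk, a protease that digests collagen, rose 178-fold to 379 ± 45.3 CPM and Scarb2, a lysosomal membrane protein, 14.6-fold, while the sialidase Neu1 fell 8.49-fold.

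Innate immune genes were mixed. Of 22 interferon response genes 14 rose and 5 fell (median log2 change 0.70). Ifi27 rose from 30.9 ± 4.55 to 130.4 ± 13.6 CPM, while the transcription factor Irf1, itself an early response gene, fell from 306 ± 12.6 to 34.4 ± 3.27 CPM. Of 12 complement genes 4 rose and 8 fell. C1s1, a protease that starts the classical pathway, stood at 6.56 and 11.3 CPM fresh and at 139, 132, 116 and 120.5 CPM at day 21 (log2 change 3.83 ± 0.14, adjusted p = 5e-19), with reads that its copy C1s2 may share.

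Lipid genes changed enzyme by enzyme. Of 24 cholesterol synthesis genes 13 rose and 10 fell. Hsd17b7, a reductase of the later steps, rose from 43.7 ± 2.23 to 104 ± 5.21 CPM, while Hmgcs1, an enzyme of the early steps, fell from 1202 ± 247 to 272 ± 13.4 CPM. Only 12 of 20 genes of the adipocyte, cartilage and bone programmes passed the filter, and 4 rose and 5 fell. Pparg, the master factor of fat cells, rose from 2.02 ± 0.350 to 26.4 ± 0.980 CPM, and Lpl, the lipase of fat cells, fell from 1160.1 ± 70.7 to 78.4 ± 5.37 CPM.

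Genes of the HIF pathway and of glycolysis did not rise as groups in cells kept without drug. Of 22 glycolysis and glucose uptake genes 17 fell and 4 rose (median log2 change -1.12). The glucose carrier Slc2a1 fell from 98.5 ± 3.50 to 32.2 ± 3.54 CPM and Ldhb, the lactate dehydrogenase of oxidative tissue, from 854 ± 35.7 to 11.1 ± 0.632 CPM. The 4 that rose were Hk2 (hexokinase, log2 change 3.52 ± 0.18), Eno2 (an enolase, 3.59 ± 0.13), Pkm (pyruvate kinase, 0.81 ± 0.10) and Pfkfb4 (a regulator of phosphofructokinase, 0.73 ± 0.14). Of 26 other HIF targets 14 fell and 8 rose (median -0.59, or -0.38 without day 0 library 2). The number that rose was 5 in DESeq2 and 11 when scaled by library size alone, where the median was -0.36. Car12, a carbonic anhydrase, fell from 352 ± 40.3 to 0.937 ± 0.181 CPM, Pdk1, which keeps pyruvate out of mitochondria, from 101.2 ± 2.34 to 16.8 ± 1.67 CPM, and the hydroxylase Egln3 from 6.15 ± 0.614 to 1.03 ± 0.396 CPM. Of the HIF subunits and their hydroxylases, 10 of 11 were tested, with 4 higher and 4 lower. The subunit Hif1a rose from 208 ± 22.4 to 406 ± 17.3 CPM and Epas1, which encodes HIF-2 alpha, from 42.5 ± 4.06 to 96.3 ± 27.2 CPM (adjusted p = 8.95e-05).

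**Figure D3:**
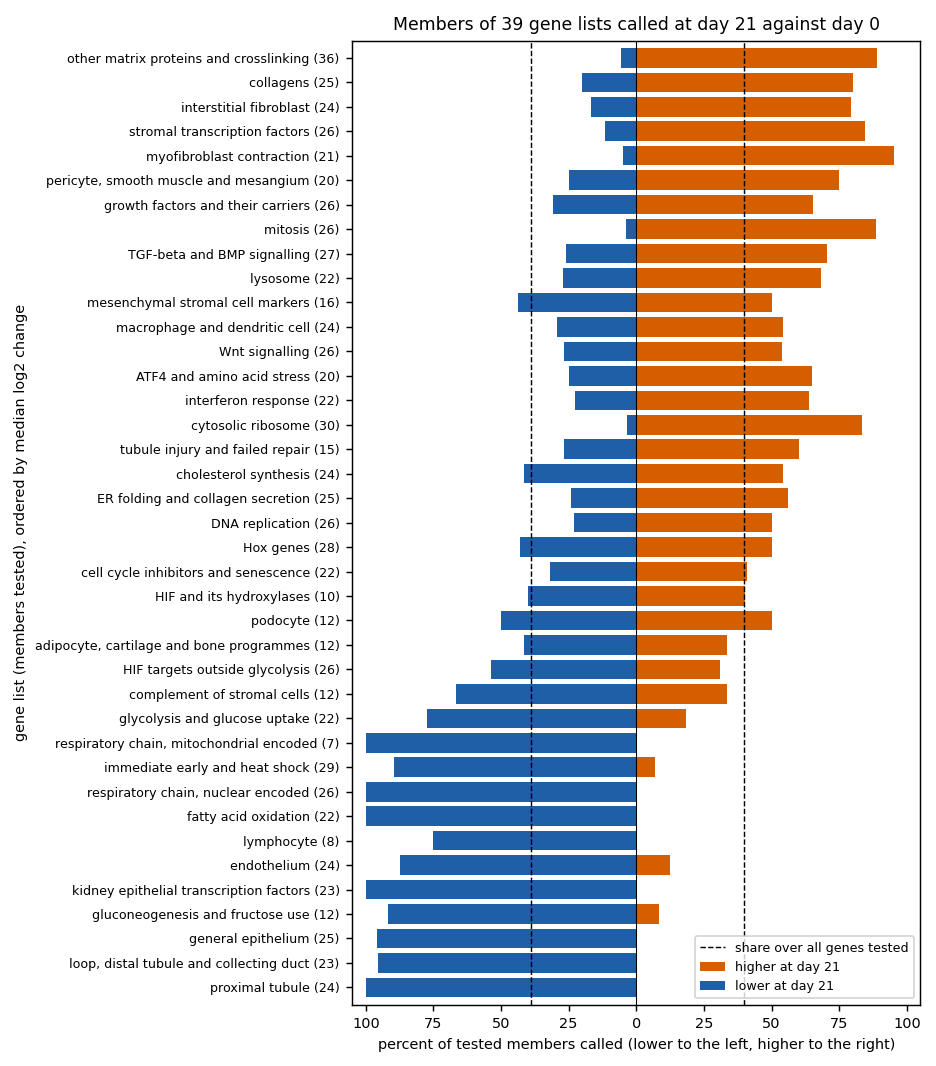
Percent of the tested members of each of 39 gene lists that were called lower (blue, to the left) or higher (orange, to the right) at day 21 than at day 0, ordered by median log2 change, with dashed lines at the shares over all genes tested (39.1% lower and 39.7% higher). All tested members of 5 lists fell (proximal tubule, kidney epithelial transcription factors, fatty acid oxidation and both respiratory chain lists), and 32 of 36 other matrix genes rose.

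Some genes were silent at 1 end of the culture. At day 0, 9439 genes stood at 10 CPM or more, and 151 of these had no count in the 4 day 21 libraries. In the other direction 8 genes without a count at day 0 stood at 10 CPM or more at day 21, out of 9017. Beside Acsm2, genes without a count at day 21 included the protease genes Klk1 (2551 and 3139 CPM fresh) and Mep1a (1487 and 1847 CPM) and Slc22a6, the organic anion carrier (1301 and 1669 CPM). Klk1 belongs to a family with close copies. Genes without a count in fresh cells were led by Slc1a6, a glutamate carrier of neurons, at 60.4, 57.03, 50.9 and 51.2 CPM at day 21 (at least 559.6-fold higher), and Slc5a7, the choline carrier of nerve endings, at 56.9, 56.01, 50.9 and 52.6 CPM (at least 552-fold higher). Others were Cpa6, a carboxypeptidase, at 32.4 ± 3.42 CPM and Cldn11, a tight junction protein of myelin and testis, at 16.1 ± 2.36 CPM. The nuclear RNA Malat1, among the 5 genes with the most counts in both groups, was uncalled at 22009.5 ± 1131 and 23837 ± 1902 CPM (adjusted p = 0.248).

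The day 7 libraries show that much of the change was made early and that part of it later went back. Day 7 differed from day 0 in 14326 genes (76.5%) and day 21 from day 7 in 12877 genes (68.7%). These comparisons share libraries with each other and with day 21 against day 0, so their values stand side by side. Most of the tubule fall was made by day 7: all 24 proximal tubule markers were lower than at day 0 (background 39.5%), with Lrp2 at 63.7 CPM, and 12 fell further by day 21 (background 34.3%). General epithelial genes kept falling, with 18 of 25 lower at day 21 than at day 7, among them Cdh16 from 84.7 ± 3.75 to 2.82 ± 0.380 CPM. Matrix genes kept rising. Of 25 collagens 18 were higher at day 21 than at day 7 (background 34.5%), with Col1a1 at 899.7, 960.5, 1021 and 1075 CPM at day 7, below every day 21 library (log2 change 3.33 ± 0.30).

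Division and contraction instead peaked at day 7. All 26 mitosis genes were higher at day 7 than at day 0 (background 37%), and all 26 were lower again at day 21. Mki67 stood at 108, 107, 106 and 109.6 CPM at day 7, above all libraries of day 0 and day 21. Of 26 DNA replication genes 24 rose by day 7 and 24 fell afterwards. Of 21 contraction genes 15 were lower at day 21 than at day 7, with Acta2 falling from 5382 ± 216 to 2213 ± 191 CPM. Ribosomal protein genes took the same course, with 28 of 30 higher at day 7 and 25 lower after it. Fos had its lowest values at day 7, at 6.79, 6.80, 6.55 and 6.98 CPM, and was higher again at day 21 (log2 change day 7 to 21 4.80 ± 0.07). The interferon response followed a like course: 13 of 22 fell by day 7, and 20 rose from day 7 to day 21.

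Tubule injury genes peaked between the end points. Of 15 listed genes 9 rose and 4 fell from day 0 to day 21, but 13 were higher at day 7 than at day 0, and 12 were lower at day 21 than at day 7. Havcr1, the kidney injury molecule KIM-1, stood at 3.89 and 17.1 CPM in the fresh libraries, at 801, 841, 773 and 814 CPM at day 7 and at 10.01, 10.03, 7.67 and 9.34 CPM at day 21. Day 21 lay between the 2 fresh libraries and was uncalled against them (adjusted p = 0.654), and it was called in opposite directions when 1 or the other fresh library was left out. From day 7 to day 21 Havcr1 fell by 6.44 on the log2 scale (adjusted p = 1.84e-12). Spp1, osteopontin, had means of 1912 ± 139, 8069.6 ± 300.5 and 694 ± 79.4 CPM at day 0, 7 and 21. Lcn2, the lipocalin NGAL, and Clu, clusterin, fell over the whole course, Lcn2 from 6.21 ± 0.0320 to 0.171 ± 0.0529 CPM and Clu from 510.5 ± 22.3 over 39.1 ± 2.62 to 4.36 ± 0.395 CPM. The opposite dip was seen in Sfrp1, a Wnt inhibitor named after its values were seen. It stood at 357 and 243 CPM fresh, at 4.27, 4.79, 5.57 and 4.08 CPM at day 7 and at 269, 270.2, 269 and 294 CPM at day 21, where it was uncalled against day 0 (adjusted p = 0.250). Pdgfra also came late, with 13.02 ± 1.08 CPM at day 7, and so did Igfbp3, with 162 ± 5.24 CPM.

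**Figure D4:**
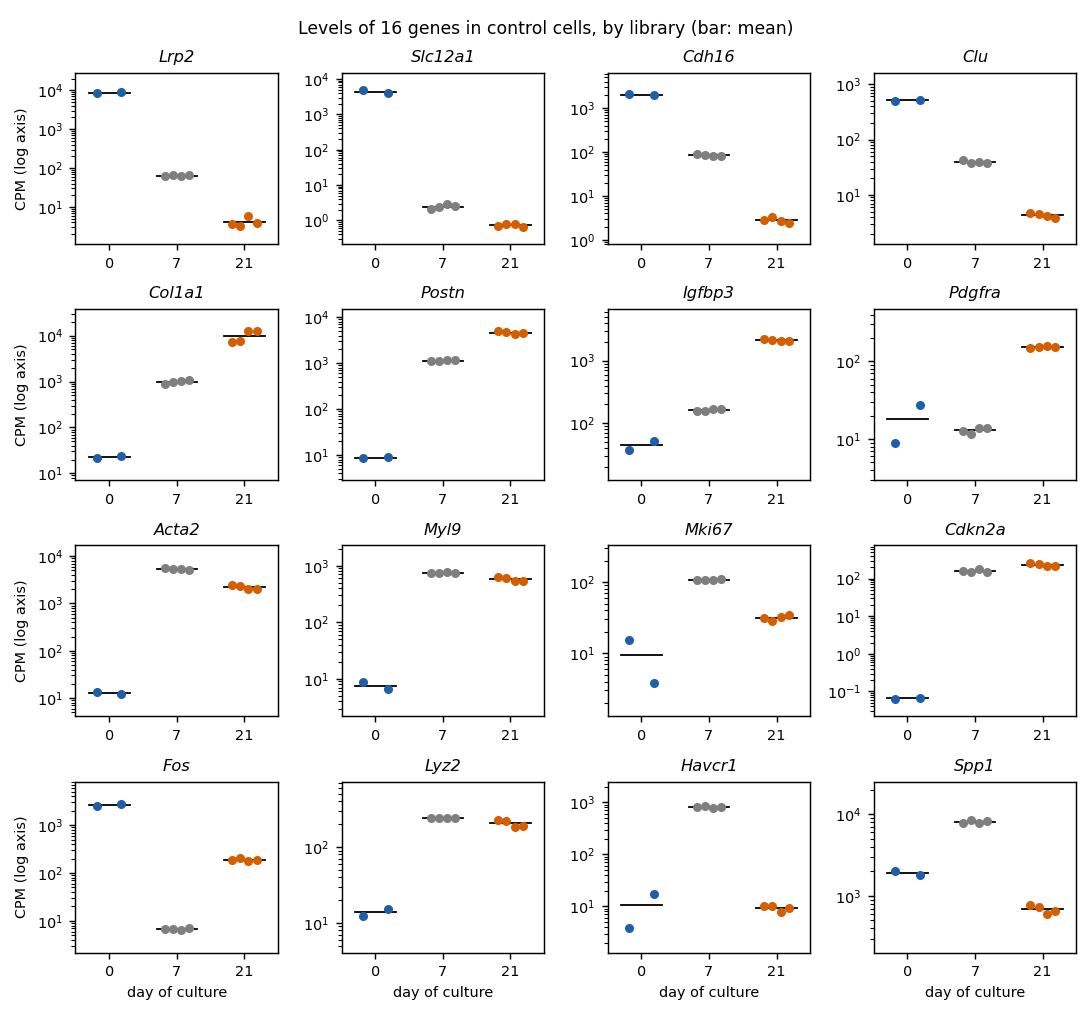
CPM of 16 genes in each control library at day 0 (n = 2), day 7 (n = 4) and day 21 (n = 4), on log axes, with 1 point for each library and a bar at the mean. Lrp2, Slc12a1, Cdh16 and Clu fell throughout, Col1a1, Postn and Igfbp3 rose throughout, Acta2, Mki67, Havcr1 and Spp1 were highest at day 7, and Fos was lowest there.

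Whether the same 3 weeks changed roxadustat cells differently was tested as an interaction, the change from day 0 to day 21 in roxadustat cells minus that in control cells. It was called for 8301 of 18731 genes (44.3%), with 4105 (21.9%) above and 4196 (22.4%) below 0. Of 25 general epithelial genes 22 fell less, or rose more, with roxadustat and none the other way, as did 19 of 23 epithelial transcription factors (2 the other way). The median log2 change of general epithelial genes was -7.59 in control and -2.46 in roxadustat cells. For proximal tubule markers the interaction was above 0 in 12 of 24 and below 0 in none, with medians of -14.62 and -11.08. Cdh16 stood at 1659 ± 114 and 115 ± 2.94 CPM at day 0 and 21 with roxadustat (n = 2 and 4), a difference in log2 change of 5.63 ± 0.11 (adjusted p = 4.79e-24). Pkhd1, the fibrocystin of primary cilia, stood at 839 ± 40.6 and 28.6 ± 2.06 CPM in control and at 859 ± 67.2 and 1019 ± 36.2 CPM in roxadustat cells. The interaction was also called in Erbb4, an EGF family receptor (1.97 ± 0.208 against 131 ± 5.14 CPM at day 21), Car2, a carbonic anhydrase (4.41 ± 0.389 against 179 ± 7.34 CPM), the apical transport motor Myo5b (3.15 ± 0.287 against 229 ± 6.29 CPM), the amino acid carrier Slc6a18 (1.14 ± 0.258 against 293 ± 24.7 CPM) and Spns2, which exports sphingosine-1-phosphate (16.6 ± 0.517 against 665 ± 25.3 CPM).

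Stromal genes had the larger rise in control cells. Of 24 interstitial fibroblast genes 22 had an interaction below 0 and 1 above, with median log2 changes of 4.79 in control and 0.36 in roxadustat cells. The interaction was also below 0 for 19 of 25 collagens (6 above) and 31 of 36 other matrix genes (3 above). For macrophage genes it was below 0 in 20 of 24 and above 0 in 2. Lyz2 rose to 207 ± 20.2 CPM in control cells and stood at 55.8 ± 7.40 and 4.92 ± 0.359 CPM at day 0 and 21 with roxadustat, a difference of -7.41 ± 0.15 (adjusted p = 4.79e-24). HIF targets lay on the other side, with 25 of 26 above 0 and none below, as did 18 of 22 glycolysis genes (2 below). For nuclear respiratory chain genes few interactions were called (medians -2.34 and -2.47, with 2 called above and 4 below 0 of 26). Roxadustat cells at day 0 came from injected mice, so the 2 courses also start from different cells.

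**Figure D5:**
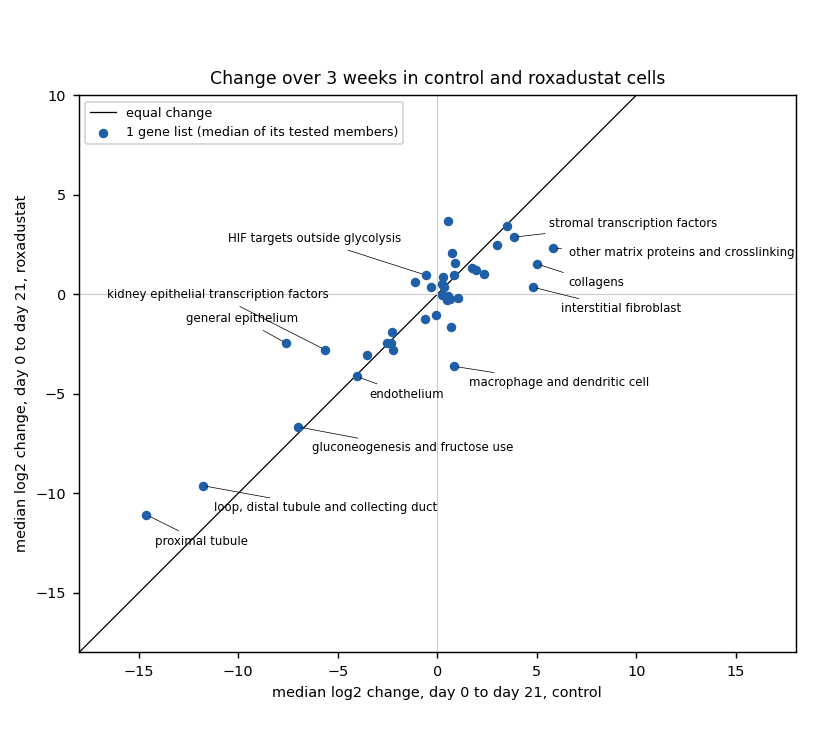
Median log2 change from day 0 to day 21 of the tested members of each of 39 gene lists in control cells (horizontal) and in roxadustat cells (vertical), fitted values that include genes with few or no counts, with a line of equal change. General epithelium lies above the line (-7.59 and -2.46), and interstitial fibroblast (4.79 and 0.36) and macrophage genes (0.86 and -3.63) lie below it.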

How the data were processed

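RNA was taken with Trizol and made into libraries with a TruSeq kit that does not mark strand, per the labels' protocols. The authors deposited raw counts of reads per gene, made with STAR 2.5.2a and featureCounts 1.5.0-p1 on mm10, per the submitters' processing notes. The annotation release and the treatment of reads that fit several genes are not given in the sources used here. Of 47729 gene identifiers, 47310 matched a symbol in GENCODE M21 (GRCm38).

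Counts of all 20 libraries were fitted together in R 4.3.3 with edgeR 4.0.16 (filterByExpr, TMM, robust quasi-likelihood test, Benjamini-Hochberg adjustment, threshold 0.05), with 1 term for each of the 6 groups. SE is the size of the log2 change over the square root of F. A ratio of counts with 1 to 3 counts in 1 group is scaled to the effective library sizes and has an exact 95% interval, and a fold against a group with no count is set against 3 counts over that group. These intervals and floors cover counting error only. Total counts of the 6 libraries lay between 13681573 and 19562899. The scripts were tested on simulated data in which few genes changed, unlike here. How the scaling behaves when most genes change was not tested that way. Alternatives were other scalings, filters and thresholds, only the libraries compared, DESeq2 1.42.0, limma 3.58.1 voom, a replicate block, pairs summed and each library left out.

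Genes and the 39 lists were chosen with earlier results of these data known. Named genes were the 12 largest rises and falls (at least 50 CPM in the higher group, at least 10 counts in the lower, no overlap), the 5 highest in each group, the 5 highest with no count in the other group, the first 2 and up to 4 smallest p of each list, members against a list's direction, Ly6a, Epo and the 8 smallest p of the interaction. Wnk1, Krt19, H2-Ab1, Wt1, Ccn1, Mmp13, Vcl, Ube2c, Cdk1, Cxcl1, Igfbp5 and Sfrp1 were named after their values were seen, and some genes of the rule are not reported here.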

Additional observations from a re-analysis of the deposited data

Results flagged for a closer look

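The change from day 0 to day 21 differed between roxadustat and control cells, by the interaction test of edgeR, for 8301 genes. The 8 genes named for this test have interaction log2 values of 7.17 (Slc6a18), 6.27 (Erbb4), 6.10 (Myo5b), 5.83 (Car2), 5.63 (Cdh16), 5.37 (Spns2), 5.13 (Pkhd1) and -7.41 (Lyz2).

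In 11 of 193 sets of 4 day 21 values checked, 1 library stood apart from the other 3 by a gap that is large against their range. Chance does this in about 1 in 20 such sets of continuous values, a rate that does not apply where the other 3 libraries hold no count. In 6 of these genes the library apart held the only counts: Umod (0.0703 CPM in library 4), Epcam, Pck1, Col26a1 and Abcc9 (0.0600 CPM each in library 2) and Cd74 (0.240 CPM in library 3). Pi16, the adventitial fibroblast gene, stood at 2.46 CPM in library 4 against 1.84 to 1.86 CPM in the other 3. The Wnt inhibitor Sfrp1 stood at 294 CPM in library 4 against 269 to 270.2 CPM in the other 3. Aldh18a1, of proline synthesis, stood at 123 CPM in library 2 against 119 to 119.8 CPM in the other 3. The complement gene Cfb, with 79.5% of its exon bases shared with another gene, stood at 0.399 CPM in library 3 against 0.1801 to 0.211 CPM in the other 3. The receptor gene Erbb4 stood at 1.66 CPM in library 1 against 2.04 to 2.10 CPM in the other 3.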

How the results depend on the processing

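The count of genes lower at day 21 than at day 0 stayed within 1.5 times of 7317 under every alternative tried, and that of genes higher within 1.5 times of 7437 under every one but 1, at least a 2-fold change, which left 4823 higher (and 5022 lower). That threshold also left 9317 genes for day 7 against day 0, 5527 for day 21 against day 7 and 4447 for the interaction. Among the lists it left 6 DNA replication genes higher and 3 lower, 8 and 4 of cholesterol synthesis and 7 and 0 of ER folding. Higher and lower counts were 4 and 11 for HIF targets outside glycolysis and 8 and 4 for cell cycle inhibitor and senescence genes. They were 15 and 2 for TGF-beta and BMP signalling and 11 and 3 for lysosomes. The 2-fold threshold also left 9 interferon response and 7 ribosomal protein genes higher, and 5 complement genes lower. Leaving out 1 library at a time gave 6892 to 7403 genes higher, 7028 to 7247 lower, 13512 to 14127 called for day 7 against day 0, 12187 to 12682 for day 21 against day 7 and 7187 to 8273 for the interaction. In the same way the difference in the mitochondrial share (day 21 minus day 0) ranged from -13.4 to -9.60 percentage points and that of the 10 most abundant genes from -8.50 to -5.44. DESeq2 called 6864 genes higher and 7483 lower. Scaling by library size alone moved the median of all genes by 0.226 (log2) and gave 8598 higher and 6333 lower, and upper quartile scaling moved it by 0.122. Without the day 0 replicate 2, Havcr1 turned to a log2 change of 1.26 (adjusted p = 1.05e-07 in edgeR), and without the day 0 replicate 1 to -0.87. Malat1 was called higher under library size and upper quartile scaling, and Wnk1, Krt19, Ccn1 and Mmp13 were called lower in some settings; the cause was not tested. The median log2 change of the podocyte, HIF and hydroxylase, and adipocyte, cartilage and bone lists changed sign between settings, so no direction is given for them. The labels do not say whether equal numbers pair libraries of the groups, so the numbers were not taken as pairs. Deviations of the 2 day 0 libraries from their mean mirror each other. Correlations of same-numbered libraries (-0.0382 and 0.0349) therefore cannot decide on pairing. A replicate block gave 7266 genes higher and 7193 lower. The 2 day 0 libraries limit the precision of every change, and a gene with no count at day 21 may still lie below 0.0503 CPM (3 counts over the 4 libraries, counting error only).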
